A study of Homo sapiens with 12 samples.

Results

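Lamins, their partners at the nuclear envelope, HMGB proteins and the maintenance DNA methylation genes UHRF1 and DNMT1 are followed here through p53 activation, with and without knockdown of the transcription factor RFX7. The 10 genes, LMNA, LMNB1, LMNB2, TMPO, LBR, HMGB1, HMGB2, HMGB3, UHRF1 and DNMT1, were taken by name from the deposited tables, and all 10 were listed there among 23195 genes. The rule uses names and no measured value, but the set was proposed with earlier results of these data known, as genes whose loss marks p53-driven arrest.

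The study sequenced polyA RNA from HCT116, an established line of human colorectal carcinoma cells that keep intact p53. Either a control siRNA, siControl, or one against RFX7, siRFX7, was introduced, and each culture was given Nutlin-3a or its solvent DMSO for 24 h. Nutlin-3a, used at 10 µM, blocks MDM2, the ubiquitin ligase that keeps p53 low. This gave 4 groups of 3 replicates, siControl with DMSO, siControl with Nutlin-3a, siRFX7 with DMSO and siRFX7 with Nutlin-3a, all in 1 cell line, and all 4 received an siRNA. The labels do not say whether the replicates were separate cultures, so the p-values measure only the spread between these libraries, which may be technical.

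The nuclear lamina is a protein mesh under the inner nuclear membrane, built from A-type lamins (LMNA) and B-type lamins (LMNB1, LMNB2) and tied to chromatin and membrane by partners such as the TMPO proteins (LAP2) and the lamin B receptor LBR. HMGB proteins are abundant chromatin proteins that bend DNA, and UHRF1 brings the methyltransferase DNMT1 to newly copied DNA so that methylation marks survive replication. Loss of LMNB1 and of HMGB2 from cells is widely used as a marker of senescence. TMPO, HMGB2, UHRF1 and DNMT1 are also known as genes of proliferating cells.

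As a check of the labels, the recovered mean of RFX7 was 944 normalized counts per library in siControl cells with DMSO and 1332 with Nutlin-3a, against 185 and 302 in siRFX7 cells. CDKN1A, the p53 target that encodes the cell cycle inhibitor p21, had a log2 fold change with Nutlin-3a of 4.46 in siControl cells in the authors' deposited table. Of 8 markers of colorectal epithelium, 7 were listed. EPCAM, KRT8, KRT18, KRT19, CDH1 and CLDN7 had means above 1000, VIL1 had a mean of 8.0, and LGALS4 was not listed. The summed mean of the epithelial list ranged from 117586 to 271736 across the 4 groups. Of 6 markers of blood, fibroblast, endothelial, muscle and glial cells, PTPRC, CD3E and PECAM1 were not listed. COL1A1 and ACTA2 together summed to between 496 and 1647 across the 4 groups. GFAP had a mean of 2.1 over all libraries and no recovered group means, so it is not in these sums. In bulk RNA, fewer cells of a type and less RNA per cell cannot be told apart.

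Promoter sequence is shown for the members whose upstream bases held a word of an element known from cell cycle or RFX-bound promoters. RefSeq promoter windows (GRCh38.p14) were found for 9 of the 10 genes, 18 windows in all, and HMGB2 had no entry. The 200 bases before each start were searched on both strands for the CCAAT box (CCAAT), the cell cycle homology region (TTTGAA or TTCGAA), 4 E2F words (TTTCCCGC, TTTCGCGC, TTTGCCGC, TTTGGCGC) and an X-box half-site (GTTGCNA). No matches overlapped one another. A CCAAT word lay in a window of 6 genes (HMGB1, HMGB3, LMNA, LMNB1, TMPO and UHRF1), against 32.7% of 27305 genes with a window. An E2F word lay in LMNA and UHRF1, against 2.81% of genes. Only HMGB3 held a cell cycle homology word, against 13.5% of genes, and only HMGB1 an X-box half-site, in another of its windows, against 8.01%. These shares per gene are not like for like, since the members had more windows per gene, 18 for 9 genes against 35116 for 27305. Counted per window, a CCAAT word lay in 9 of 18, against 9844 of 35116, and an E2F word in 3, against 797. The cell cycle homology word and the X-box half-site each lay in 1 of 18 windows, against 3909 and 2282 of 35116. LBR, LMNB2 and DNMT1 held none of these words in their windows.

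In the sequences printed here, which read 5′ to 3′ along each gene's strand, capitals mark the matched words. Bases inside an annotated exon of the same gene were left out, and with them the LMNB1 and TMPO matches. LMNA is shown at chr1:156082373-156082572 on the plus strand, UHRF1 at chr19:4909944-4910143 on the plus strand, HMGB1 at chr13:30465966-30466136 on the minus strand and HMGB3 at chrX:150983135-150983285 on the plus strand.
LMNA: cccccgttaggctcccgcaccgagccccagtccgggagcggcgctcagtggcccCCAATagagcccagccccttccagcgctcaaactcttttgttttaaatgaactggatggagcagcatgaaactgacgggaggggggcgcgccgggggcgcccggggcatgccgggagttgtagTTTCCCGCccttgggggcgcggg
UHRF1: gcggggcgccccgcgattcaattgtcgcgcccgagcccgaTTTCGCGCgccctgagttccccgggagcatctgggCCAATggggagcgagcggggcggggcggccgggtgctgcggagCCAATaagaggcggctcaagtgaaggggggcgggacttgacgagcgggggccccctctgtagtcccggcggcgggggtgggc
HMGB1: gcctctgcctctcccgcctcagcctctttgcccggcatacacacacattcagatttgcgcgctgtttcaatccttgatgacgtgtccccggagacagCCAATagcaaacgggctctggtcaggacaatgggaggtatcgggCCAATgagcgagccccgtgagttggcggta
HMGB3: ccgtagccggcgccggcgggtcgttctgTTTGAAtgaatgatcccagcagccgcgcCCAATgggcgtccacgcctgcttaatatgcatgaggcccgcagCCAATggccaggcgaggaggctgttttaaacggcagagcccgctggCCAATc
In the bases shown, LMNA and UHRF1 both carried a CCAAT word and an E2F word. HMGB3 carried 3 CCAAT words and the cell cycle homology word. Whether these words bear on the response to Nutlin-3a was not tested. A match is a description of the letters and no evidence of binding.

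Nutlin-3a lowered the RNA of 9 of the 10 genes in siControl cells and raised 1, LMNA, in the authors' deposited table (DESeq2, adjusted p below 0.05). Over all 23195 genes of that table, 21.2% were called lower and 22.0% higher. Among the 5817 protein-coding genes with a mean of at least 1000 normalized counts, where all 10 members lie, 32.9% were called lower. The median log2 fold change of the 10 genes was -1.62, against 0.02 over all genes. The declines spanned a wide range, from HMGB2, at 3.95% of its DMSO level, to HMGB3, at 79.8%.

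**Figure D1:**
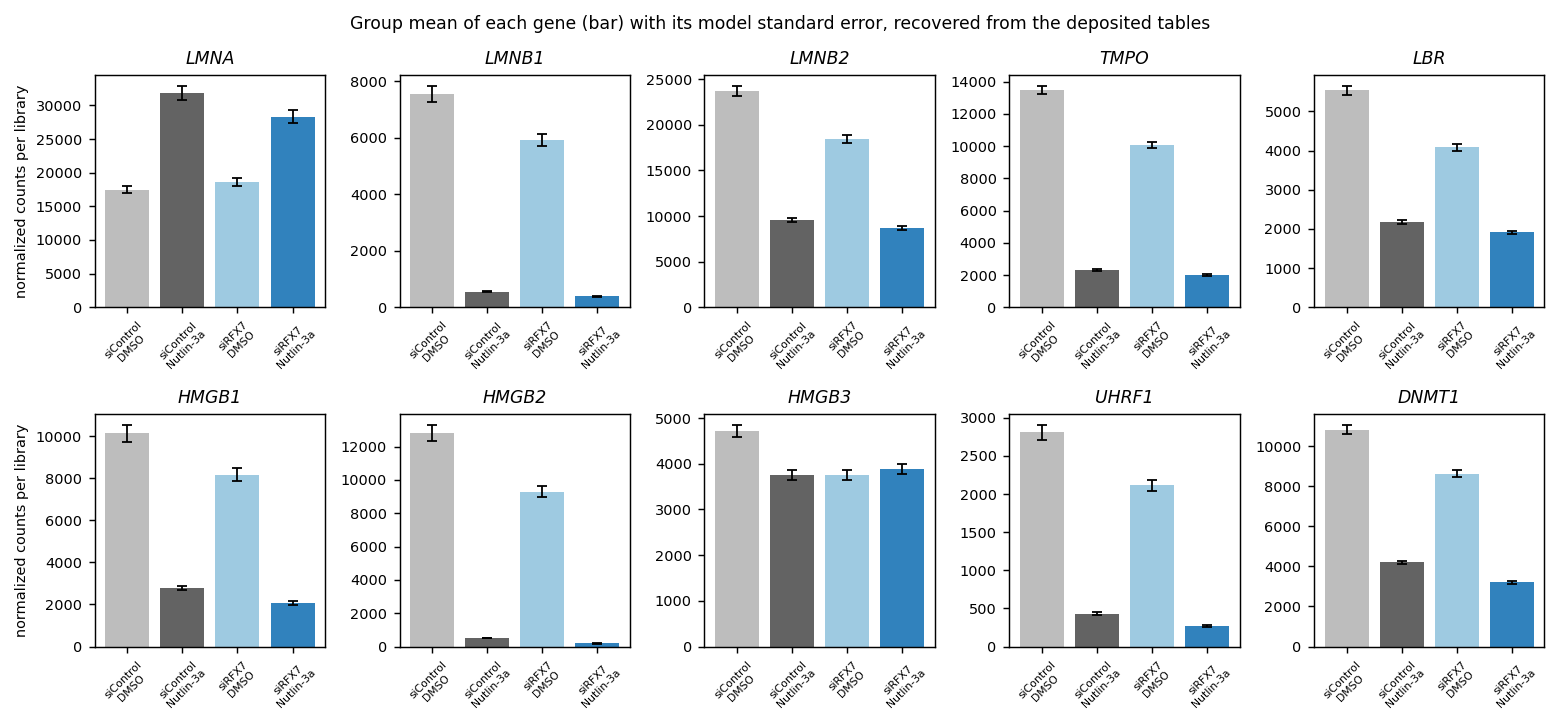
Mean normalized counts per library (y axis, linear, from 0) of each gene in the 4 groups of 3 libraries. Bars are group means recovered from the deposited tables and whiskers are their model standard errors. LMNA is higher in both Nutlin-3a groups, HMGB3 stays between 3750 and 4718 in all 4 groups, and the other 8 genes are lower with Nutlin-3a under either siRNA.

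The 3 lamins moved apart. LMNA (ENSG00000160789, chromosome 1, 156082573 to 156140089, plus strand, GRCh38, GENCODE release 29) encodes lamins A and C. Its recovered mean was 17494 ± 580 normalized counts (model SE, n = 3 libraries a group, as for all means here) in siControl cells with DMSO and 31883 ± 1053 with Nutlin-3a. In siRFX7 cells the LMNA means were 18658 ± 619 with DMSO and 28330 ± 937 with Nutlin-3a. Both Nutlin-3a means lay above both DMSO means by many standard errors. The authors' deposited tables give LMNA log2 fold changes with Nutlin-3a of 0.87 (SE 0.07, adjusted p = 2.23e-36) in siControl and 0.60 (SE 0.07, adjusted p = 5.10e-18) in siRFX7 cells.

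LMNB1 (ENSG00000113368, chromosome 5, 126776623 to 126837020, plus strand) encodes lamin B1. Its mean was 7566 ± 283 in siControl cells with DMSO and 547 ± 24.3 with Nutlin-3a, a level 13.8-fold lower. In siRFX7 cells the means were 5924 ± 223 and 382 ± 18.04. The log2 fold change of LMNB1 in the authors' deposited tables was -3.79 (SE 0.08) in siControl and -3.95 (SE 0.09) in siRFX7 cells, each with an adjusted p listed as 0. Only 216 of the 23195 genes had a lower value than LMNB1 in siControl cells, and 212 in siRFX7 cells.

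LMNB2 (ENSG00000176619, chromosome 19, 2427638 to 2456996, minus strand), the gene of lamin B2, fell less. Its means were 23724 ± 582 and 9584 ± 239 in siControl cells with DMSO and Nutlin-3a, and 18437 ± 454 and 8725 ± 218 in siRFX7 cells. The log2 fold changes in the authors' deposited tables were -1.31 (SE 0.05, adjusted p = 4.87e-146) and -1.08 (SE 0.05, adjusted p = 3.97e-99). LMNB2 shares 257 exonic bases with TIMM13 on the same strand. TIMM13, an import chaperone of mitochondria, was not called in siControl cells, at -0.23 on the log2 scale (adjusted p = 0.0740), and fell by 0.43 in siRFX7 cells (adjusted p = 0.000269) in the authors' deposited tables. The TIMM13 mean over all libraries was 2279, against 15117 for LMNB2.

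Compared per kilobase of annotated exon, the makeup of lamin RNA turned over. The lengths, 6985 bases for LMNA, 3633 for LMNB1 and 5432 for LMNB2, join the exons of all annotated transcripts. Which transcripts were expressed is not known here, so shares and ratios between genes are uncertain, as are all levels per kilobase here. LMNB2 held 48.8% of the summed lamin level per kilobase in siControl cells with DMSO, LMNA 27.97% and LMNB1 23.3%. With Nutlin-3a LMNA held 70.4%, LMNB2 27.2% and LMNB1 2.33%. The LMNA level per kilobase was 1.203 times that of LMNB1 with DMSO and 30.3 times with Nutlin-3a. In siRFX7 cells this ratio was 1.64 with DMSO and 38.6 with Nutlin-3a, and LMNA held 34.7% and then 70.3%.

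The lamina partners fell as well. TMPO (ENSG00000120802, chromosome 12, 98515512 to 98550379, plus strand), the gene of the LAP2 proteins that bind lamins and chromatin, had means of 13486 ± 270 and 2298 ± 52.5 in siControl cells and of 10074 ± 204 and 1995 ± 46.5 in siRFX7 cells. Its log2 fold change with Nutlin-3a in the authors' deposited tables was -2.55 (SE 0.04) in siControl and -2.34 (SE 0.04) in siRFX7 cells, each with an adjusted p listed as 0. The antisense gene TMPO-AS1 shares 713 exonic bases with TMPO and had a log2 fold change of -4.29 in siControl cells in the authors' deposited table. Whether reads were counted by strand is not given in the sources used here, but the TMPO-AS1 mean over all libraries was 98.8, against 6963 for TMPO.

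LBR (ENSG00000143815, chromosome 1, 225401502 to 225428925, minus strand) encodes an inner nuclear membrane protein that binds lamin B and heterochromatin and acts as a sterol reductase. Its means were 5540 ± 118 and 2179 ± 50.8 in siControl cells and 4079 ± 88.6 and 1910 ± 45.4 in siRFX7 cells. The LBR log2 fold changes in the authors' deposited tables were -1.35 (SE 0.05, adjusted p = 2.68e-190) and -1.09 (SE 0.05, adjusted p = 2.50e-121). TMPO stood above LBR per kilobase with DMSO, at 1.49 times its level in siControl cells, and below it with Nutlin-3a, at 0.645 times.

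The HMGB genes split into a gene that was nearly lost, one that fell and one that changed little. HMGB2 (ENSG00000164104, chromosome 4, 173331695 to 173335125, minus strand) encodes the HMGB form linked to proliferating cells. Its mean was 12835 ± 470 in siControl cells with DMSO and 507 ± 22.5 with Nutlin-3a, and 9305 ± 342 and 186 ± 10.4 in siRFX7 cells. The level with Nutlin-3a was 25.3-fold lower in siControl and 49.97-fold lower in siRFX7 cells. HMGB2 log2 fold changes in the authors' deposited tables were -4.66 (SE 0.08) and -5.64 (SE 0.10), each with an adjusted p listed as 0. Only 85 and 61 of 23195 genes had lower values.

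HMGB1 (ENSG00000189403, chromosome 13, 30456704 to 30617597, minus strand), which also acts as an alarm signal outside the cell, had means of 10126 ± 405 and 2781 ± 114 in siControl cells and of 8172 ± 328 and 2064 ± 85.9 in siRFX7 cells. Its log2 fold changes in the authors' deposited tables were -1.86 (SE 0.08, adjusted p = 1.33e-110) and -1.98 (SE 0.08, adjusted p = 2.10e-123). HMGB3 (ENSG00000029993, chromosome X, 150980509 to 150990775, plus strand), an HMGB gene best known from embryonic and stem cells, had means of 4718 ± 134 and 3764 ± 108 in siControl cells and of 3750 ± 108 and 3878 ± 111 in siRFX7 cells. HMGB3 fell in siControl cells, by 0.33 on the log2 scale (SE 0.06, adjusted p = 1.21e-07), and was not called in siRFX7 cells, at 0.05 (SE 0.06, adjusted p = 0.565), in the authors' deposited tables. The 95% interval of the second value ran from 95.5% to 112% of the DMSO level.

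Per kilobase, HMGB2 held 64.9% of the summed HMGB level in siControl cells with DMSO, HMGB1 18.4% and HMGB3 16.7%. With Nutlin-3a HMGB3 held 63.6%, HMGB1 24.1% and HMGB2 12.2%. The level of HMGB3 per kilobase was 0.257 times that of HMGB2 with DMSO and 5.20 times with Nutlin-3a in siControl cells, and 0.282 and 14.6 times in siRFX7 cells.

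Reads of HMGB1 and HMGB3 may be split with pseudogenes, so their levels are uncertain. The tables listed 11 pseudogenes named after HMGB1, whose means summed to 81.8% of that of HMGB1, mostly HMGB1P5 (mean 3487) and HMGB1P6 (mean 1187). In the authors' deposited table for siControl cells both had a log2 fold change with Nutlin-3a of -1.81, within the 95% interval of their parent. In siRFX7 cells that interval ran from -2.15 to -1.82. There HMGB1P6, at -1.83, lay inside it and HMGB1P5, at -1.81, just outside, in the authors' deposited table. With siRFX7 in DMSO they had -0.59 and -0.56 in the authors' deposited table, against -0.31 for HMGB1. For HMGB3, 3 copies summed to 25.0%, for HMGB2 a single copy to 0.590% and for TMPO a single copy to 0.895%. Copies were sought only by the gene symbol followed by P and a number, and none so named was listed for the other 6 genes. Adding the copies in all 4 tables to the parent gave HMGB1 log2 fold changes with Nutlin-3a of -1.84 and -1.91, and HMGB3 values of -0.33 and 0.03. With siRFX7 the summed values were -0.43 in DMSO and -0.50 in Nutlin-3a for HMGB1, and -0.32 and 0.04 for HMGB3.

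**Figure D2:**
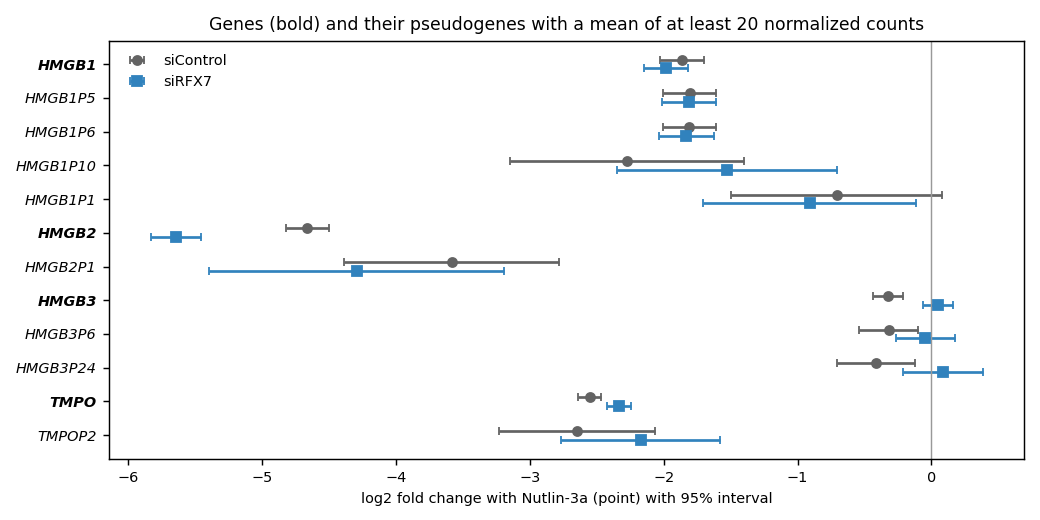
Log2 fold change with Nutlin-3a (x axis) of 4 genes, in bold, and of their pseudogenes with a mean of at least 20 normalized counts. Circles are siControl and squares siRFX7 cells, and whiskers are 95% intervals. HMGB1P5 and HMGB1P6 lie near HMGB1, at about -1.81 in siControl cells, and the intervals of the HMGB3 copies overlap those of HMGB3.

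The maintenance methylation pair fell to different extents. UHRF1 (ENSG00000276043, chromosome 19, 4903080 to 4962154, plus strand), which reads hemimethylated DNA, had means of 2811 ± 96.0 and 431 ± 18.4 in siControl cells and of 2117 ± 73.5 and 272 ± 13.0 in siRFX7 cells. Its log2 fold changes in the authors' deposited tables were -2.71 (SE 0.08, adjusted p = 1.34e-255) and -2.96 (SE 0.09, adjusted p = 1.82e-263). DNMT1 (ENSG00000130816, chromosome 19, 10133345 to 10231286, minus strand), the methyltransferase itself, had means of 10828 ± 233 and 4197 ± 95.1 in siControl cells and of 8630 ± 188 and 3198 ± 74.2 in siRFX7 cells. In the authors' deposited tables the DNMT1 log2 fold changes were -1.37 (SE 0.05, adjusted p = 2.14e-199) and -1.43 (SE 0.05, adjusted p = 5.65e-212). DNMT1 thus stood at 2.02 times UHRF1 per kilobase with DMSO and at 5.12 times with Nutlin-3a in siControl cells. DNMT1 shares 83 exonic bases on the same strand with S1PR2, a sphingosine phosphate receptor gene that rose by 1.09 (log2) in siControl cells in the authors' deposited table. The mean of S1PR2 over all libraries was 417, against 6714 for DNMT1.

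In siRFX7 cells the authors' deposited table called 8 of the 10 genes lower with Nutlin-3a, LMNA higher and HMGB3 not changed beyond the threshold (DESeq2). Of the 23195 genes listed there, 19.7% were called lower and 21.7% higher. Among protein-coding genes with a mean of at least 1000, 28.1% were called lower. The median of the 10 genes was -1.71, against -0.02 over all genes.

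**Figure D3:**
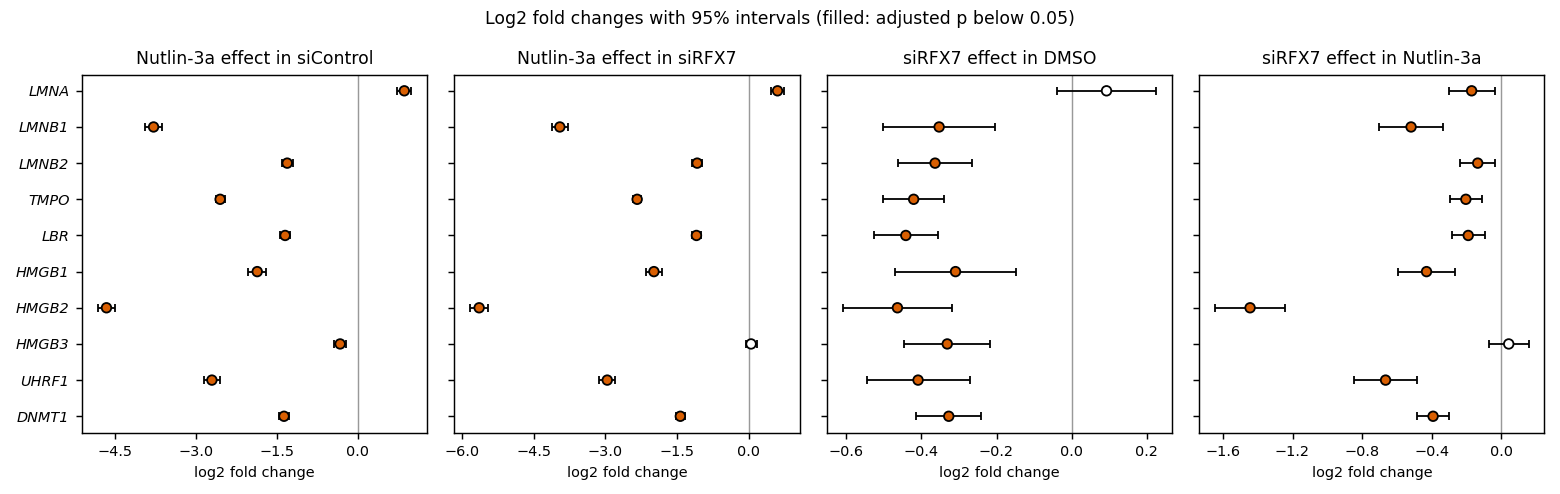
Log2 fold changes (x axis, a separate scale in each panel) of the 10 genes in the 4 deposited comparisons, with 95% intervals. Filled points have an adjusted p below 0.05. With Nutlin-3a the values run from -4.66 to 0.87 in siControl cells, and with siRFX7 in DMSO from -0.46 to 0.09.

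The order of the levels per kilobase changed with Nutlin-3a. In siControl cells with DMSO it ran HMGB2, LMNB2, LMNA, LMNB1, TMPO, HMGB1, HMGB3, DNMT1, LBR and UHRF1, from 4625 down to 546 normalized counts per kilobase. HMGB2 and LMNB2 did not differ beyond the 95% interval of their gap, nor did DNMT1 and LBR, and every other neighbouring pair did. With Nutlin-3a the order was LMNA, LMNB2, HMGB3, DNMT1, LBR, HMGB1, TMPO, HMGB2, LMNB1 and UHRF1, from 4564 down to 83.7, and DNMT1 and LBR again did not differ. In siRFX7 cells with Nutlin-3a LMNA was highest at 4056 and UHRF1 lowest at 52.8, next to HMGB2 at 67.1. These intervals leave out errors of the annotated lengths and reads shared with pseudogenes. The copies named after HMGB1 summed to 81.8% of its mean, so the place of HMGB1 in these orders is uncertain.

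Knockdown of RFX7 in DMSO was followed by lower RNA of 9 of the 10 genes. The fall was narrow in range, from HMGB1 at 80.7% of its siControl level to HMGB2 at 72.5%. With its pseudogene copies added, HMGB1 had a log2 fold change of -0.43 in place of -0.31. LMNA was not called, at 107% (95% interval 97.3% to 117%). Of the 20026 genes listed for that comparison, 15.5% were called lower and 13.5% higher, and among protein-coding genes with a mean of at least 1000 the share called lower was 27.7%. The median of the 10 genes was -0.36 on the log2 scale, against -0.003 over all genes. In the authors' deposited table (DESeq2) the log2 fold changes were -0.35 for LMNB1 (SE 0.08, adjusted p = 3.81e-05), -0.36 for LMNB2 (SE 0.05, adjusted p = 1.23e-11), -0.42 for TMPO (SE 0.04, adjusted p = 1.06e-22) and -0.44 for LBR (SE 0.04, adjusted p = 4.56e-22). For the HMGB genes the authors' deposited table gives -0.31 for HMGB1 (adjusted p = 0.00102), -0.46 for HMGB2 (adjusted p = 1.01e-08) and -0.33 for HMGB3 (adjusted p = 2.02e-07). UHRF1 had -0.41 (adjusted p = 8.71e-08) and DNMT1 -0.33 (adjusted p = 4.06e-12) in the authors' deposited table.

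Readouts of p53 moved in the same samples. In the authors' deposited table for siRFX7 in DMSO, CDKN1A rose by 1.29 (SE 0.10, adjusted p = 5.01e-39) and MDM2, a p53 target and the protein Nutlin-3a binds, by 0.49 (SE 0.06, adjusted p = 1.19e-12) on the log2 scale. The CDKN1A mean went from 5493 to 13389 normalized counts, far below the 121149 of siControl cells with Nutlin-3a. With siRFX7 in Nutlin-3a, CDKN1A rose by 0.35 (adjusted p = 0.00117) and MDM2 fell by 0.21 (adjusted p = 0.00456) in the authors' deposited table. The rise of CDKN1A with Nutlin-3a was 3.53 in siRFX7 cells, against 4.46 in siControl cells, in the authors' deposited tables. The part of these readouts in the lower RNA of the 10 genes was not tested. This comparison and the Nutlin-3a comparison in siControl cells share the siControl DMSO libraries.

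With Nutlin-3a present, siRFX7 cells had lower RNA of 9 of the 10 genes than siControl cells, and HMGB3 was not called, at 103% (95% interval 95.1% to 112%). HMGB2 stood apart at 36.8% of its siControl level (95% interval 32.0% to 42.3%). Of the 19393 genes listed for that comparison, 13.6% were called lower and 15.0% higher. Among protein-coding genes with a mean of at least 1000 the share called lower was 21.0%. The median of the 10 genes was -0.30, against 0.002 over all genes. The log2 fold changes in the authors' deposited table (DESeq2) were -1.44 for HMGB2 (SE 0.10, adjusted p = 3.51e-42), -0.67 for UHRF1 (SE 0.09, adjusted p = 2.00e-11), -0.52 for LMNB1 (SE 0.09, adjusted p = 4.45e-07), -0.43 for HMGB1 (SE 0.08, adjusted p = 4.30e-06) and -0.39 for DNMT1 (SE 0.05, adjusted p = 2.86e-15). Smaller values stood in the authors' deposited table for TMPO, at -0.20 (adjusted p = 0.000134), LBR, at -0.19 (adjusted p = 0.000567), LMNA, at -0.17 (adjusted p = 0.0418), and LMNB2, at -0.14 (adjusted p = 0.0306). The LMNA and LMNB2 calls were lost when group means were rescaled to equal totals, and at an adjusted p below 0.01. They were also lost under a t reference of 8 degrees of freedom in place of the normal one. Each of these settings left 7 of the 10 genes lower. Over all 19393 genes, rescaling called 2310 lower, the stricter adjusted p 1888 and the t reference 1580.

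Whether siRFX7 changed the response to Nutlin-3a was tested as the difference between both Nutlin-3a log2 fold changes, siRFX7 minus siControl, with a two-sided z test adjusted by Benjamini-Hochberg over 23195 genes. Of the 10 genes, 1 was called lower and 4 higher, against 2.92% and 3.28% of all genes. Among protein-coding genes with a mean of at least 1000 these shares were 5.02% and 8.13%. The median of the 10 genes was -0.09, against 0.003 over all genes.

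HMGB2 was the gene called lower, with a difference of -0.98 (SE 0.13, adjusted p = 2.98e-12). Its fold of remaining RNA in siRFX7 cells was 50.7% of that in siControl cells (95% interval 42.7% to 60.3%). HMGB3 had a difference of 0.37 (SE 0.08, adjusted p = 0.000303), LBR of 0.25 (SE 0.06, adjusted p = 0.00360), LMNB2 of 0.23 (SE 0.07, adjusted p = 0.0277) and TMPO of 0.22 (SE 0.06, adjusted p = 0.0128). LMNB2, TMPO and LBR therefore fell with Nutlin-3a in both backgrounds, and by less under siRFX7. The differences of LMNA (-0.26, adjusted p = 0.0789), UHRF1 (-0.26, adjusted p = 0.218), LMNB1 (-0.17, adjusted p = 0.579), HMGB1 (-0.12, adjusted p = 0.734) and DNMT1 (-0.06, adjusted p = 0.742) did not pass. For LMNB1 the 95% interval allowed a remaining fold from 75.7% to 105% of that in siControl cells. Under the t reference HMGB2 passed (adjusted p = 0.0134) and none of the 4 higher genes did. Over all 23195 genes that reference called 143 lower and 131 higher. The LMNB2 call was also lost when group means were rescaled to equal totals, and the LMNB2 and TMPO calls when fold changes were centred on their median. The LMNA difference, not called in the main test, was called lower under each of these rescalings.

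**Figure D4:**
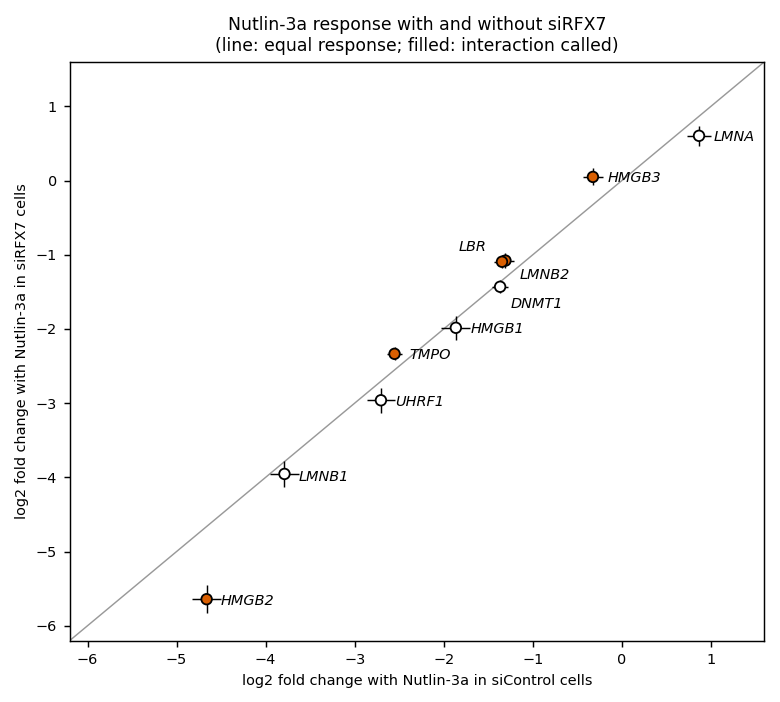
Log2 fold change with Nutlin-3a in siControl cells (x axis) and in siRFX7 cells (y axis) for the 10 genes, with 95% intervals and a line of equal response. Filled points passed the test of the difference. HMGB2 lies below the line by 0.98, and HMGB3, LBR, LMNB2 and TMPO lie above it by 0.22 to 0.37.

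Other genes of the same structures and processes were described by lists, each gene counted by its own call. The shares of all genes called lower and higher with Nutlin-3a, against which the list counts are set, were 21.2% and 22.0% in siControl cells and 19.7% and 21.7% in siRFX7 cells. Among protein-coding genes with a mean of at least 1000, where many of the list genes lie, they were 32.9% and 36.8% in siControl cells. In siRFX7 cells they were 28.1% and 39.5%. Of 14 genes of inner nuclear membrane proteins and the LINC complex, which ties the lamina to the cytoskeleton, 11 were called lower and 2 higher with Nutlin-3a in siControl cells, with a median of -0.50. NRM, the gene of nurim, stood lowest in the authors' deposited table, at -2.94. Higher in the authors' deposited table were SYNE1, the gene of nesprin 1, at 1.63 and TMEM43 at 0.26. In siRFX7 cells 8 were lower and 3 higher. SYNE3, the gene of nesprin 3, was called lower in siControl cells, at -0.45, and higher in siRFX7 cells, at 0.74, in the authors' deposited tables, and the difference of 1.19 was called (SE 0.20, adjusted p = 3.30e-07), also under the t reference (adjusted p = 0.0371).

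Of 5 genes that process prelamin A and B-type lamins, 2 were lower and 1 higher with Nutlin-3a in siControl cells, too few to set apart from the 21.2% and 22.0% of all genes. ICMT, the enzyme that methylates the lamin C terminus, had the lowest log2 fold change of that list in each of the 4 comparisons of the authors' deposited tables. Its values were -0.91 and -0.70 with Nutlin-3a and -1.05 and -0.84 with siRFX7. FNTA, the shared subunit of the prenyl transferases, was the gene of that list called higher in all 4 comparisons, from 0.19 to 0.41, in the authors' deposited tables. Its lowest value, with Nutlin-3a in siRFX7 cells (adjusted p = 0.0128), lost its call under both rescalings, under the t reference and at an adjusted p below 0.01.

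All 3 HP1 genes, CBX1, CBX3 and CBX5, whose proteins bind methylated histone H3, were lower with Nutlin-3a under either siRNA, with medians of -0.92 and -0.84. CBX5, which encodes HP1 alpha, fell most in siControl cells, by 1.34 (log2) in the authors' deposited table. With siRFX7 in DMSO CBX5 was the single HP1 gene called, at -0.44 in the authors' deposited table. Among 16 genes of histone chaperones and heterochromatin enzymes, 13 were lower and 1 higher in siControl cells, with a median of -0.52. ASF1B, a histone H3-H4 chaperone, had -5.00 and SETDB1, a histone H3 methyltransferase, 0.21 in the authors' deposited table. With siRFX7 10 of the 16 were lower in DMSO and none higher, against 15.5% and 13.5% of all genes. In Nutlin-3a 8 were lower and 1, EED, higher, against 13.6% and 15.0%. Among protein-coding genes with a mean of at least 1000, the lower shares were 27.7% in DMSO and 21.0% in Nutlin-3a. The test of the difference called ASF1B lower, at -1.13 (SE 0.18, adjusted p = 6.70e-08), and SUV39H1 higher, at 0.64 (SE 0.15, adjusted p = 0.00127). With 1 of the 16 called each way, the counts are too few to set apart from the 2.92% lower and 3.28% higher of all genes. Under the t reference ASF1B passed (adjusted p = 0.0324) and SUV39H1 did not (adjusted p = 0.128).

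Of 8 other HMG genes 7 were listed, HMGB4 being the exception, and 5 were lower and 1 higher with Nutlin-3a in siControl cells, against 21.2% and 22.0% of all genes. HMGN2, a nucleosome-binding protein gene, had the lowest value at -1.96 and HMGA2, an architectural protein gene, the highest at 0.38 in the authors' deposited table. Of 12 further genes of DNA methylation and its removal, 8 were lower and 1, TET2, higher in siControl cells, against the same shares of all genes. PCLAF, a partner of the replication clamp PCNA, had a log2 fold change of -3.64 in siControl and of -4.65 in siRFX7 cells in the authors' deposited tables, and its difference of -1.01 was called (SE 0.24, adjusted p = 0.00116). In that list 5 genes had a called difference above 0, DNMT3A, DNMT3B, CDCA7, PCNA and USP7, from 0.26 to 0.62. Over all genes 3.28% had a called difference above 0 and 2.92% below it. Among protein-coding genes with a mean of at least 1000 these shares were 8.13% and 5.02%. Under the t reference CDCA7 alone of the list kept its call (adjusted p = 0.0183). DNMT3B, a de novo methyltransferase gene, was higher with siRFX7 in both media, while DNMT1 was lower in both. The DNMT3B log2 fold changes in the authors' deposited tables (DESeq2) were 0.31 in DMSO (SE 0.11, adjusted p = 0.0201) and 0.88 in Nutlin-3a (SE 0.12, adjusted p = 6.38e-12). The DMSO call of DNMT3B was lost at an adjusted p below 0.01.

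**Figure D5:**
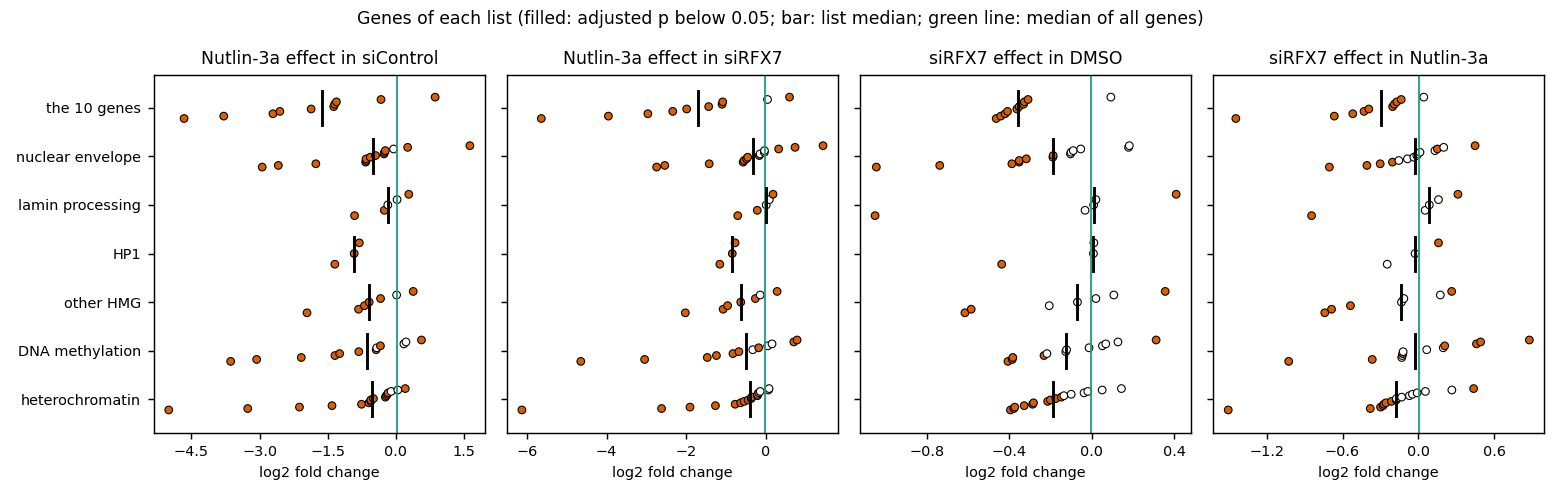
Log2 fold changes (x axis, a separate scale in each panel) of the 10 genes and of the genes of 6 lists in the 4 deposited comparisons. Filled points have an adjusted p below 0.05, black bars are list medians and the green line is the median of all genes. The median of the 10 genes with Nutlin-3a is -1.62 in siControl cells, below that of every list shown.

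Each gene's nearest neighbours were sought among 10863 protein-coding genes with a mean of at least 100, by Euclidean distance over 3 log2 fold changes, both Nutlin-3a values and siRFX7 in DMSO. LBR lay nearest to CBX5 (distance 0.0570) and next to LMNB2 (0.0885), the closest pair among the 10 genes. Nearest to HMGB2 were EME1 (0.0935) and TROAP (0.119), to LMNB1 ARHGAP11A (0.145), to TMPO DUT (0.126), to UHRF1 RECQL4 (0.189), to DNMT1 HYLS1 (0.0542) and to HMGB1 TOPBP1 (0.0717). For LMNA the nearest was ATG2A (0.0446), for LMNB2 SCML2 (0.0593) and for HMGB3 SH3GL1 (0.0389). The distances take no account of the standard errors, so the ranks are uncertain. For LMNA the second gene lay at 0.0451, while its log2 fold change in siControl cells had an SE of 0.07. LMNA and HMGB2 lay farthest apart of all pairs, at 8.36.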

How the data were processed

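PolyA RNA of 12 HCT116 libraries was sequenced, from 500 ng of total RNA per the labels' protocols. The submitters' processing notes name bcl2fastq 2.20.0.422, Trimmomatic 0.39, FastQC 0.11.9, cutadapt 2.10, SAMtools 1.10, Picard, featureCounts 1.6.5, DESeq2 1.20.0 (used by the authors) and the build hg38, with no roles. The aligner, the annotation, strand use and the treatment of multiply matching reads are not given in the sources used here.

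The authors' 4 DESeq2 tables were the files used. Their mean normalized count is a signal column, made by the authors as counts over size factors averaged across libraries. Fold changes and standard errors hold log2 values, per the file headers. A score column holds the test statistic, in the deposited tables the log2 fold change over its standard error. P-values and adjusted p-values are those of the authors' test, and the adjusted values equal a Benjamini-Hochberg adjustment over each table's genes. Values per library were not analysed here.

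Both knockdown tables were taken to give siRFX7 relative to siControl, since the 4 log2 fold changes then closed within 1.27e-14, against a median error of 0.374 read the other way. Summed squared standard errors agreed within 2.71e-06, as in 1 shared fit. Group means were recovered from the overall mean and the fold changes. They summed to between 25916000 and 27407500 normalized counts a group, and the depth of single libraries is unknown. Dispersions were recovered from the standard errors, taking each library's size factor as 1, which gave a model coefficient of variation of 3.36% (TMPO) to 6.86% (HMGB1). Intervals are 95% normal intervals.

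Genes were called at an adjusted p-value below 0.05. For the interaction a two-sided z test was used, which treats the standard errors as known, and the scripts were tested on simulated data. Gene models came from GENCODE release 29 (23164 of 23195 IDs matched) and promoters from RefSeq. The genes named are the 10 members, RFX7, CDKN1A and MDM2, the extremes of each list and genes called against their list's majority, the pseudogenes named after a member, and the 3 nearest genes by distance, of which the nearest are printed. The overlapping genes, the promoters shown, SYNE3, DNMT3B, SUV39H1 and the list genes with a called interaction were chosen after their values were seen. The members and lists were chosen with earlier results of these data known. Alternatives were a stricter adjusted p of 0.01, a minimum absolute log2 fold change of 0.58, a mean of at least 10, 2 rescalings, a t reference and adjustment over the genes in all tables. Python 3.11.15, pandas 2.3.3 and scipy 1.17.1 were used.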

Additional observations from a re-analysis of the deposited data

Results flagged for a closer look

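A response to Nutlin-3a that differed between siRFX7 and siControl cells, by the z test of the difference, put 5 genes on this list. HMGB2 had a difference of -0.98 log2, siRFX7 minus siControl, from a Nutlin-3a log2 fold change of -4.66 in siControl and -5.64 in siRFX7 cells. HMGB3 had a difference of 0.37, from -0.33 and 0.05. The differences of LBR (0.25), LMNB2 (0.23) and TMPO (0.22) came from falls that were smaller under siRFX7. Added to the HMGB3 counts, its pseudogene copies left a difference of 0.36.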

How the results depend on the processing

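No paired analysis was possible because the tables hold statistics per group and no replicates, and leaving out single replicates was not run for the same reason. With Nutlin-3a in siControl cells all 10 calls held under every alternative but the minimum absolute log2 fold change of 0.58, which dropped HMGB3. The uncalled HMGB3 value in siRFX7 cells turned to -0.0054 when group means were rescaled to equal totals. Under the minimum fold, no member was called lower with siRFX7 in DMSO (0 of 10), against 503 of 20026 genes. With siRFX7 in Nutlin-3a 2 were, against 681 of 19393 genes. There 7 members were called lower under rescaling to equal totals, the t reference and an adjusted p below 0.01. Those settings called 2310, 1580 and 1888 genes lower. For the interaction, rescaling to equal totals and centring on the median each called 2 members lower, HMGB2 and LMNA. Over all 23195 genes they called 792 and 798 lower. Members called higher numbered 2 at an adjusted p below 0.01, 2 after centring, and 0 under the minimum fold and under the t reference. Over all genes, these settings called 446, 566, 185 and 131 higher. The adjusted p of the HMGB2 interaction ranged from 4.09e-13 to 0.0134 over its alternatives. Rescaling moved the share of calls over all genes that were higher from 46.5% to 60.0% for siRFX7 in DMSO and from 52.9% to 42.4% for the interaction, and no rescaling shifted a comparison by more than 0.057 log2. The cause of these moves was not tested, beyond what the stricter thresholds do by construction. With 3 libraries a group, the median standard error of the members' log2 fold changes was 0.0629 to 0.0630 in the 4 comparisons, which limits how small a difference can be called.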

Other observations

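Of the markers of other cell types only COL1A1 and ACTA2 had group means. Their sum was lowest in siControl cells with DMSO, at 496, and highest in siRFX7 cells with Nutlin-3a, at 1647. ACTA2, a smooth muscle actin gene, made up most of that range, with group means of 96.1 in siControl and 383 in siRFX7 cells with DMSO and of 933 and 1147 with Nutlin-3a. The defining blood and endothelial markers PTPRC, CD3E and PECAM1 were not listed. KRT19, a keratin gene of simple epithelia, had means of 27288 in siControl and 34434 in siRFX7 cells with DMSO and of 88124 and 69960 with Nutlin-3a.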
